A study of Homo sapiens with 4 samples.

Results

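A set of 8 long noncoding RNA genes was followed in the H3K27ac HiChIP loops of M14 cells. They were NEAT1 and MALAT1, whose RNAs stay in the nucleus, SAMMSON, the melanoma lncRNA beside MITF, the sequence-related pair CYTOR and MIR4435-2HG, the p53-associated LINC-PINT, and the small RNA host genes MIR22HG and GAS5. A loop was assigned to a member when a GENCODE transcript start of that gene lay in one of its 5 kb anchors. By this rule 41 of the 27289 loops in the WT list and 38 of the 25621 in the STAG2-KD list belonged to members, 59 distinct loops in all, and 5 of the 8 genes had at least 1. M14 is a human melanoma line, and the cells used here carried a doxycycline-inducible hairpin RNA that targets STAG2, one of the cohesin subunits. Cells kept for 5 days in doxycycline formed the STAG2-KD group, and cells without doxycycline formed the WT group. The labels named 4 samples, 2 per group, of which 1 loop list per group was analysed, and whether a list pools both replicates was not stated. Both groups carried the hairpin construct, so doxycycline itself and the knockdown cannot be told apart. The lists gave positions on hg19 and no read counts, so the depth behind a loop was unknown, the knockdown could not be checked from them, and no difference between the lists had a replicate check or a p-value.

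HiChIP ligates DNA ends that are neighbours in the folded genome, and an antibody then selects the fragments with a chosen chromatin mark. Acetylated lysine 27 of histone H3 marks active promoters and enhancers, so loops of this kind involve stretches near such elements. Long noncoding RNA genes are transcribed by RNA polymerase II from promoters with the same mark as coding genes. NEAT1 RNA is the scaffold of nuclear bodies called paraspeckles and MALAT1 RNA collects in nuclear speckles, while SAMMSON lies next to the melanocyte regulator MITF and is transcribed in melanoma. Cohesin holds chromatin loops together, and STAG2 and STAG1 are alternative subunits of it.

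The sequences shown first are those on which the reading of single members turns. Promoter windows from RefSeq (table build GRCh38.p14, 250 bases before to 50 after a start) were placed on hg19 by exact match. Only the chromosome of the gene was searched. The tables used here hold no entry for NEAT1 or SAMMSON. The MALAT1 window shown, chr11:65264959-65265258 on the plus strand, crosses an edge between bins. Capitals mark the bases inside the bin of the start, and the 42 bases in lower case belong to the bin before it. A second RefSeq window of MALAT1, chr11:65266266-65266565, lies wholly in the bin of the start and is not shown. It held TATAAA at -30 and CATGTG at -183 from its own start.

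MALAT1: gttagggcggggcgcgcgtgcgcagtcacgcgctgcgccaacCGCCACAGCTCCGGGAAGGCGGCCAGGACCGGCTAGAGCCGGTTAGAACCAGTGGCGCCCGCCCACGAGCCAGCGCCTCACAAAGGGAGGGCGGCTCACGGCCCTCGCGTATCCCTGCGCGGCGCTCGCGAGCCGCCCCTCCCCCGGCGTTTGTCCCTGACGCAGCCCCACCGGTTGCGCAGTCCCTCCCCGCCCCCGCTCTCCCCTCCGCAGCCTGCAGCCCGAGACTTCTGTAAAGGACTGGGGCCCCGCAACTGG

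The windows of CYTOR and MIR4435-2HG are shown because they cannot be told apart over most of their length. The CYTOR window lies at chr2:87754696-87754995 on the plus strand and the MIR4435-2HG window at chr2:112252689-112252988 on the minus strand. Capitals mark the bases common to both when one is slid by 59 bases along the other.

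CYTOR: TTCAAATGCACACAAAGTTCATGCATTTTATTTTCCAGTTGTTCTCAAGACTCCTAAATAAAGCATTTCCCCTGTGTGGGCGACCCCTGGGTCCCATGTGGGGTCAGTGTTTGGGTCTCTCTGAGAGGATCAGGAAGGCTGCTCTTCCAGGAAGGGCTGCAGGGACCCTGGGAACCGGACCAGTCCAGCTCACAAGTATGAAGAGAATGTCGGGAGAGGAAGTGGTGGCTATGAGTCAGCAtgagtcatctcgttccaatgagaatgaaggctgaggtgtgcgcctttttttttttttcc

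MIR4435-2HG: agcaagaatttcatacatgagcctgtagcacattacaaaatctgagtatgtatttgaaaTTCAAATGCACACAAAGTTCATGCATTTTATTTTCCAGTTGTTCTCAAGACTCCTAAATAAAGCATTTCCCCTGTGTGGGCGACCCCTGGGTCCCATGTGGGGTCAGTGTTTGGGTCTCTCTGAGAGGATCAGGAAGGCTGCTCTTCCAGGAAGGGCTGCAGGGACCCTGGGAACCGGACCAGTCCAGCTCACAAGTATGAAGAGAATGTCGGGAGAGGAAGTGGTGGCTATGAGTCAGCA

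All 241 overlapping bases were identical, with 0 differences. The complete MIR4435-2HG window matched chromosome 2 of hg19 exactly at 2 places, its own start and chr2:87754637-87754936 at the start of CYTOR. Other chromosomes were not searched for it.

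For LINC-PINT windows are shown from the 2 start bins with the most loops, since these anchors held different private loops. The main window is chr7:130794635-130794934 and the internal window is chr7:130598020-130598319, both on the minus strand. Capitals mark matches to short motifs searched on both strands, the E-boxes CACGTG and CATGTG, the AP-1 site TGANTCA, the SOX core ACAATG and the TATA box TATAAA.

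LINC-PINT main start: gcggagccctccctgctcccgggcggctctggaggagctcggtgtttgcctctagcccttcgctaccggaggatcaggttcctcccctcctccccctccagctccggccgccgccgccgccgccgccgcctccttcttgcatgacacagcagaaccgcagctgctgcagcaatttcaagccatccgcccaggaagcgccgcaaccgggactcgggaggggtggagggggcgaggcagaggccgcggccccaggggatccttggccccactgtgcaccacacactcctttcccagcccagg

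LINC-PINT internal start: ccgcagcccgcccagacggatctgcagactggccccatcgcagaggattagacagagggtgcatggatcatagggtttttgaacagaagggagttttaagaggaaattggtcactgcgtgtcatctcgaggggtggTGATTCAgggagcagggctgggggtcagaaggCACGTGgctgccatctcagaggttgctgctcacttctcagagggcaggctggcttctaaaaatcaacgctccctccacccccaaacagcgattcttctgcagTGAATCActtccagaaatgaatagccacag

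The main window held 0 matches, as did the other 2 RefSeq windows of LINC-PINT in the same bin. The internal window held 1 CACGTG, at -82 from the start, and AP-1 letters at -114 and at 20. Across 35116 RefSeq promoter windows of 300 bases, CACGTG was found in 7.26% and TGANTCA in 7.71%. These matches describe letters and not bound factors.

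The 2 host genes of microRNAs are represented by their mature products, which identify what each host carries. Capitals mark the seed, bases 2 to 8.

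miR-22-3p: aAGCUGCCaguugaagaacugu

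miR-22-5p: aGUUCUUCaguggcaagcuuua

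miR-4435: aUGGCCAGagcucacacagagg

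The table lists miR-4435 under both MIR4435-1 and MIR4435-2, with the same mature sequence. The 3 mature sequences have 3 different seeds.

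About as many member loops were shared between WT and STAG2-KD as were private to either list. Loops with identical anchor bins in WT and STAG2-KD counted as shared, and the rest as private to a list. There were 20 shared member loops, besides 21 in the WT list alone (WT-only) and 18 in the STAG2-KD list alone (STAG2-KD-only). Sharing covered 48.8% of the WT member loops (exact Clopper-Pearson 95% interval 32.9 to 64.9) against 38.0% of all WT loops. It covered 52.6% of the STAG2-KD member loops (35.8 to 69) against 40.5% of all STAG2-KD loops. These intervals cover the counting of loops only, and loops at one start share an anchor and are not independent. Under a looser match, 2 of the 39 private loops had a partner within 1 bin at each anchor and 8 had one within 2 bins. For 13 of the 21 WT-only loops the far anchor was still an anchor of some loop in the STAG2-KD list, and for 6 of the 18 STAG2-KD-only loops the far anchor was an anchor in the WT list. Over all anchors, those of shared loops included, 62.8% of WT anchors were also in the STAG2-KD list and 65.4% of STAG2-KD anchors were also in the WT list. Anchors of shared loops are in both lists by definition, so these percentages are not a like baseline for far anchors of private loops. No share over private loops alone was computed.

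**Figure D1:**
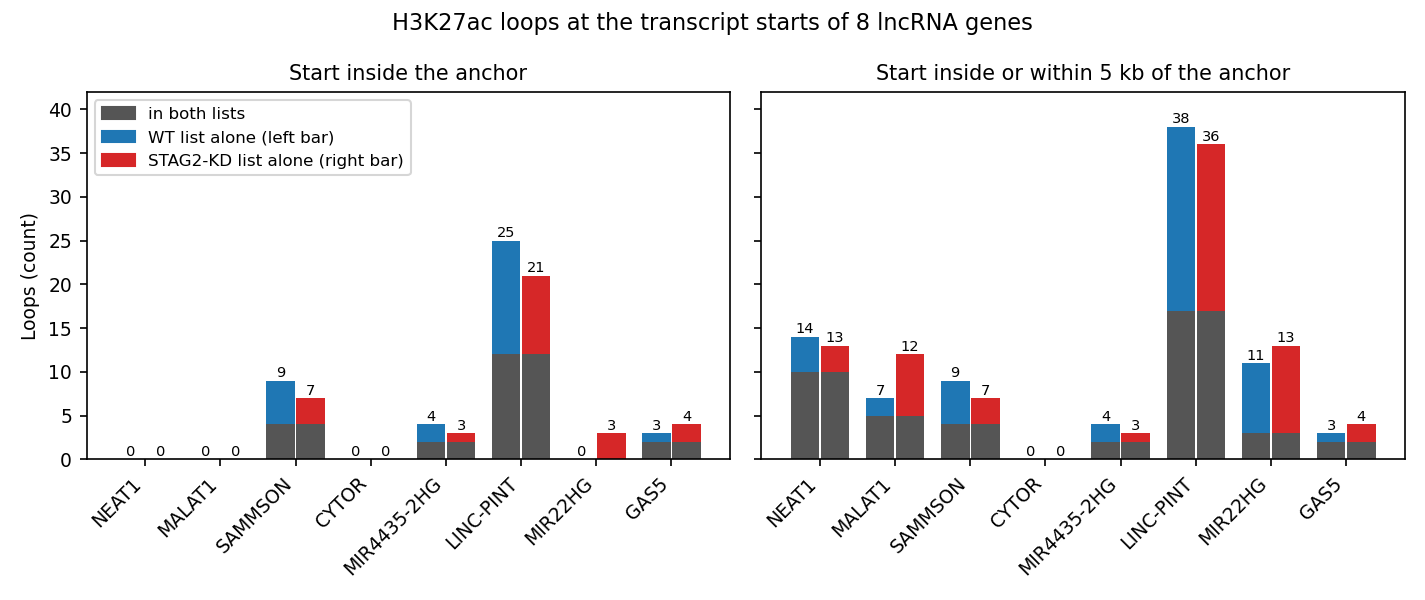
Loops per member (y axis, count), for transcript starts inside the anchor (left panel) and inside or within 5 kb of it (right panel). The left bar of each pair is WT and the right bar is STAG2-KD, grey parts are loops in both lists, and LINC-PINT has the tallest bars with 25 and 21 loops while NEAT1 rises from 0 to 14 and 13 when the neighbouring bins are counted.

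The members fell into 3 kinds. SAMMSON, MIR4435-2HG, LINC-PINT and GAS5 had loops at a start in both lists, MIR22HG had them in the STAG2-KD list alone, and NEAT1, MALAT1 and CYTOR had none. Across 18229 lncRNA genes on the autosomes, 18.4% had a loop at a start in either list, against 44.5% of 19229 protein-coding genes. Genes with no loop at a start but at least 1 in a bin within 5 kb made up 11.8% of lncRNA genes, and NEAT1 and MALAT1 were of that kind. Among the looped lncRNA genes 44.2% had more WT than STAG2-KD loops, as did SAMMSON, MIR4435-2HG and LINC-PINT. A further 36.3% had more STAG2-KD loops, as did MIR22HG and GAS5. The share of looped lncRNA genes with loops in the STAG2-KD list alone was 17.1%.

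Member loops seldom ended at a coding promoter. A protein-coding start lay at the far anchor of 4 of 41 WT loops, 9.76% (2.72 to 23.1), and of 4 of 38 STAG2-KD loops, 10.5% (2.94 to 24.8). Over all loops with a lncRNA start at one anchor these percentages were 41.5% in WT and 40.0% in STAG2-KD. The distinct loops of this kind included those to BCL2L11, to MKLN1 from both LINC-PINT anchors, to PITPNA and to PRPF8. Most of the remaining far anchors lay in introns or exons of the member itself or of a coding neighbour. The percentage depended on where a start was placed. With starts inside or within 5 kb of an anchor it was 26.2% for the 84 WT loops and 30.2% for the 86 STAG2-KD loops, with NEAT1 and MALAT1 then entering with loops to coding promoters in both lists and MIR22HG entering with such loops in the WT list.

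NEAT1 (ENSG00000245532.11, chr11:65190245-65213011, plus strand) had no loop in the bin of its 9 annotated starts, and one of the most connected anchors of the lists next to it. The canonical start lies 269 bases inside its bin. The bin before it, chr11:65185001-65190000, held 14 WT loops and 13 STAG2-KD loops, with 10 in both lists. That bin holds no NEAT1 start but a start of another gene, ENSG00000290057, so its loops cannot be given to NEAT1 alone. Fewer loops were found at 99.4% of the 22955 WT anchors and at 99.3% of the 22070 STAG2-KD anchors. Among the 2148 lncRNA genes with loops beside but not at a start, 98.8% had fewer WT loops and 98.6% fewer STAG2-KD loops in the neighbouring bins. No list held a pair of loops whose anchors were within 1 bin of each other at both ends, so in neither list could a start bin beside such an anchor also hold a loop to the same or an adjacent far bin. In sequence the NEAT1 start bin was 100% unique, counted as the share of its 31-base stretches found once in hg19, and it held 10 GATC sites, the sequence that MboI cuts, against a median of 14 per WT anchor.

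The shared loops of the bin before NEAT1 reached gene promoters on both sides. Upstream they ended at the bin of FAU, MRPL49 and ZNHIT2 at 300 kb, where FAU encodes a ribosomal protein and MRPL49 a mitochondrial one, at the promoter of DPF2 at 85 kb, a subunit of BAF chromatin remodelling complexes, inside DPF2 at 70 kb, and at the bin of FRMD8 and SLC25A45 at 35 kb. Downstream their ends included a bin between NEAT1 and MALAT1 at 35 kb, both ends of MALAT1 at 75 and 90 kb, the bin of MAP3K11, a stress-activated kinase, and PCNX3 at 195 kb, and a bin 831 bases from a start of C11orf68 at 495 kb. In total 10 of the 17 distinct loops ended at a coding promoter, 8 of the 14 WT loops and 7 of the 13 STAG2-KD loops. Over all loops with a lncRNA start at one anchor this share was 41.5% in WT and 40.0% in STAG2-KD. The 4 WT-only loops went to a bin with the start of an unnamed lncRNA at 55 kb, to the bin of FAM89B and ZNRD2 at 150 kb, to EHBP1L1 at 165 kb and to FOSL1 at 480 kb, the gene for the AP-1 subunit FRA1. The 3 STAG2-KD-only loops included 1 into the 3' part of NEAT1 at 25 kb and 1 to POLA2, a subunit of DNA polymerase alpha, at 160 kb. The loop at 25 kb had a WT loop within 2 bins at each anchor.

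MALAT1 (ENSG00000251562.11, chr11:65265111-65275544, plus strand) showed the same arrangement, with its loops in the bins on either side of the gene. Its canonical start lies 111 bases inside its bin, and neither start bin held a loop. The bin before the start, chr11:65260001-65265000, held 2 WT loops and 5 STAG2-KD loops, with 1 in common. It holds a start of another gene, ENSG00000290061, and none of MALAT1. The bin at the 3' end, chr11:65275001-65280000, held 5 WT loops and 7 STAG2-KD loops, with 4 in both lists. Both bins thus held more loops in the STAG2-KD list, as did the neighbourhood. With both anchors within 500 kb of the canonical start there were 65 WT and 77 STAG2-KD loops around MALAT1. Around NEAT1 there were 57 and 72, and both counts include loops of the bins beside the starts. The bin of the canonical start held 6 GATC sites, below the 5th percentile of WT anchors (8), and its 31-base stretches were 100% unique. The other start bin, chr11:65270001-65275000, held 17 GATC sites, above the median of 14 per WT anchor, and was 97.5% unique. The looped bins on either side of the gene were 80.7% and 58.2% unique. Start bins of members that did hold loops had 7 to 14 GATC sites, and those of LINC-PINT without loops had 9 to 23. The part of cut sites and of bin edges in the missing start loops was not tested.

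The 4 STAG2-KD-only loops of the bin before MALAT1 led to the bin of FRMD8 and SLC25A45 at 110 kb, into NEAT1 at 60 kb, to FOSL1 at 405 kb and near C11orf68 at 420 kb. The far anchor at FOSL1 was therefore reached from the bin before NEAT1 in the WT list and from the bin before MALAT1 in the STAG2-KD list. The far anchor beside C11orf68 was reached from the NEAT1 side in both lists and from the MALAT1 side in the STAG2-KD list. At the 3' end of MALAT1 the STAG2-KD-only loops went into NEAT1 at 75 kb, to LTBP3, a binding protein of latent TGF-beta, at 50 kb and to a bin without a gene start at 140 kb. The bin of FRMD8 and SLC25A45 held 3 WT loops and 11 STAG2-KD loops in all.

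The canonical starts of NEAT1 and MALAT1 lie 74.8 kb apart, and the stretch from the bin before NEAT1 to the bin at the end of MALAT1 held 8 WT loops and 11 STAG2-KD loops, with 6 in common. The bin before NEAT1 was joined to both flanks of MALAT1 in both lists. Within the body of NEAT1 the bin chr11:65200001-65205000 held 1 WT loop and 4 STAG2-KD loops. Its 3 private loops led to the bin before MALAT1, to the end of MALAT1 and to a bin between the genes at 45 kb.

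**Figure D2:**
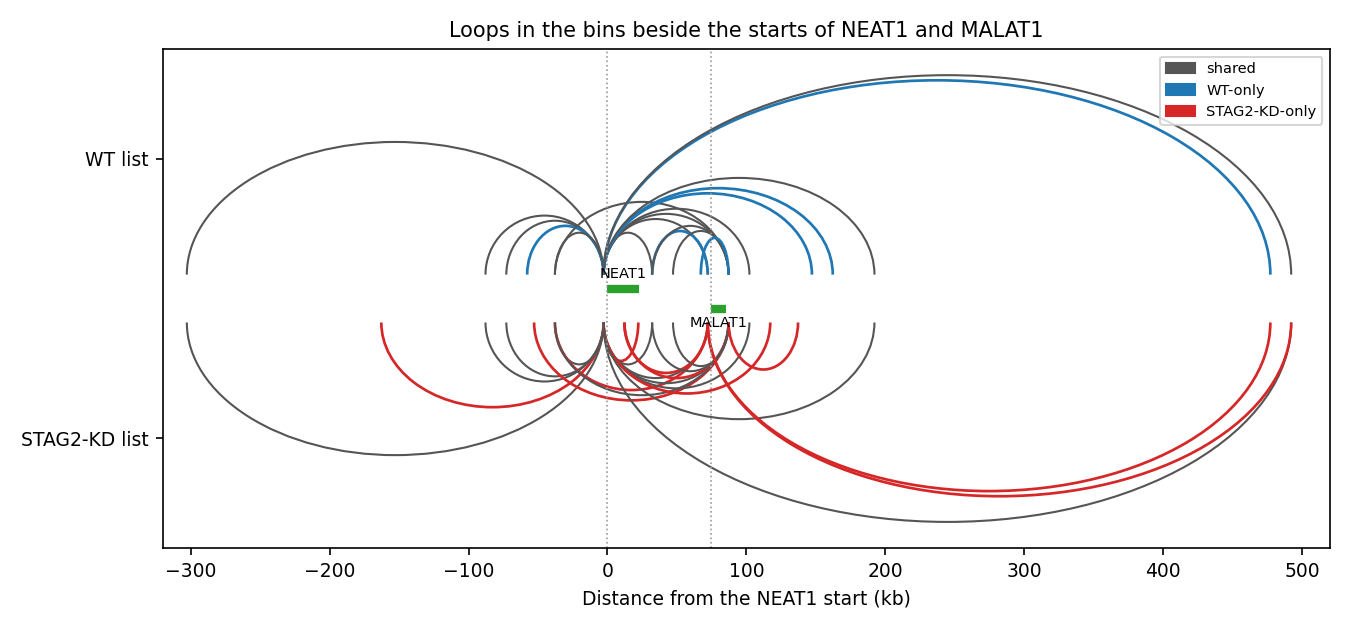
Loops of the bins beside the starts of NEAT1 and MALAT1, plotted by distance from the NEAT1 start (x axis, kb), with WT loops above and STAG2-KD loops below the green genes; arc height only separates the loops. The bin before NEAT1 sends 14 arcs in WT and 13 in STAG2-KD, and the arcs near MALAT1 number 7 in WT and 12 in STAG2-KD.

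SAMMSON (ENSG00000240405.7, chr3:70048701-70567215, plus strand) had 9 WT loops and 7 STAG2-KD loops at its canonical start, with 4 in both lists, and most of them pointed back towards MITF. Among looped lncRNA genes 95.6% had fewer WT loops and 91.4% fewer STAG2-KD loops. All loops lay at the bin chr3:70045001-70050000, and the other 3 start bins held none. Upstream of the start lay the far anchors of 6 WT and 6 STAG2-KD loops, while 3 WT loops and 1 STAG2-KD loop ended inside SAMMSON.

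MITF, the master regulator of the melanocyte lineage, held the far anchor of 4 of the 9 WT loops and 3 of the 7 STAG2-KD loops. Shared loops ended in MITF at 250 kb and 160 kb from the SAMMSON bin. WT-only loops ended in MITF at 195 kb and 70 kb, and 1 STAG2-KD-only loop ended in it at 210 kb. None of the 12 distinct SAMMSON loops ended in a bin with a coding start. Of the 6 bins with MITF starts, chr3:69810001-69815000 held 6 WT and 2 STAG2-KD loops, chr3:69985001-69990000 held 1 WT loop and no STAG2-KD loop, and the other 4 held none in either list. The 5 far anchors inside MITF held none of its starts but often lay near one. The far anchor at 210 kb ended 3559 bases from an MITF start, in the bin next to that of the start, and those at 70, 250 and 195 kb ended 5738, 6368 and 6442 bases from one, while that at 160 kb lay 25375 bases away. The other 7 distinct SAMMSON loops ended outside MITF.

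The remaining SAMMSON loops differed in reach. The longest, at 910 kb, was shared and ended inside ARL6IP5, 808 bases from a start of that gene, which encodes a protein of the endoplasmic reticulum. WT-only loops also ended before MITF at 305 kb and inside SAMMSON at 40 and 55 kb, and a shared loop ended inside it at 70 kb. STAG2-KD-only loops ended before MITF at 345 and 295 kb. Private loops thus ran over 40 to 305 kb in WT and 210 to 345 kb in STAG2-KD, ranges that overlapped. The WT-only loop at 305 kb and the STAG2-KD-only loop at 295 kb lay within 2 bins of each other. This pair therefore counts as matched under the tolerance of 2 bins. The overlap of the ranges rests on that WT loop, since the other WT-only loops reached at most 195 kb. With both anchors within 500 kb of the canonical start there were 55 other WT loops and 34 other STAG2-KD loops, with 18 in common.

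**Figure D3:**
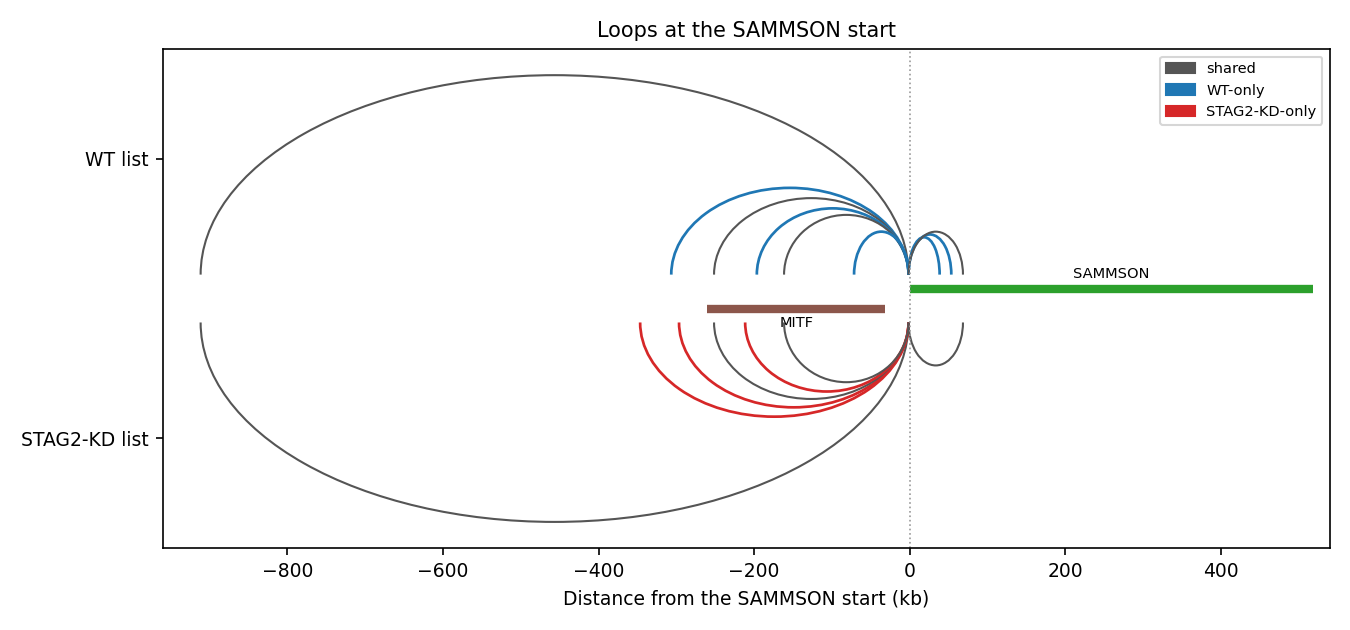
Loops at the SAMMSON start by distance from that start (x axis, kb), WT above and STAG2-KD below the gene bars (green SAMMSON, brown MITF); arc height only separates the loops. Of the 12 distinct arcs 9 run upstream, 5 of them into MITF, and the longest at 910 kb is in both lists.

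LINC-PINT (ENSG00000231721.8, chr7:130476023-130794935, minus strand) carried most of the member loops, 25 in WT and 21 in STAG2-KD, with 12 in common. Its RNA is induced by p53 and associates with Polycomb repressive complexes. It held rank 7 in both lists among the 3356 looped lncRNA genes, whose median was 2 WT loops and 1 STAG2-KD loop and whose 90th percentile was 6 in both. The rank counts loops at all annotated starts of a gene, here 40 positions in 8 bins. With the canonical start only, LINC-PINT had 14 WT and 11 STAG2-KD loops. Its loops came from 3 of its 8 start bins. The main start bin, chr7:130790001-130795000, also holds a start of MKLN1 on the opposite strand, and the internal bin chr7:130595001-130600000 also holds a start of the lncRNA LINC00513, so loops at these bins cannot be given to one gene alone. Inside LINC-PINT itself, in bins without a coding start, lay the far anchor of 14 of the 25 WT loops and 9 of the 21 STAG2-KD loops. MKLN1, which encodes the cytoskeletal and ubiquitin ligase protein muskelin, held 11 in each list, and in WT these included the loop from the internal bin to the main start bin, which both genes share.

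The main start bin held 14 WT loops and 11 STAG2-KD loops, with 6 in both lists. The shared loops spanned 30, 55, 95, 110, 195 and 220 kb, and the longest of them ended at another promoter of MKLN1 with the start of MKLN1-AS. WT-only loops at this bin numbered 8 and spanned 45 to 315 kb, and STAG2-KD-only loops numbered 5 and spanned 20 to 205 kb. Private loops at the main start therefore reached farther in WT, with overlapping ranges.

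At the internal start bin the order was the other way round and the ranges were apart. This bin held 11 WT loops and 9 STAG2-KD loops, with 5 in common, at 25, 45, 75, 95 and 165 kb. The 6 WT-only loops spanned 20, 35, 60, 80, 90 and 195 kb, all within LINC-PINT or at its main start. Those of 20, 35, 90 and 195 kb had a STAG2-KD loop within 2 bins at each anchor, and those of 60 and 80 kb had none. The 4 STAG2-KD-only loops spanned 290, 315, 510 and 695 kb, and all ended upstream of the LINC-PINT main start, 3 of them inside MKLN1. None of these 4 had a WT loop within 2 bins at each anchor. Of 429 anchors with 4 or more private loops in each list, 5 had STAG2-KD-only loops that were all longer than the WT-only ones, 1.17%, and 1 had the opposite order, 0.233%. This anchor comparison used the strict match and was made after the distances at LINC-PINT had been seen. With the match within 2 bins the internal bin would keep 2 WT-only loops, fewer than the 4 required.

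The far anchor in MKLN1 at chr7:131105001-131110000 was reached from the main start bin in WT, at 315 kb, and from the internal bin in STAG2-KD, at 510 kb. Bins beside other LINC-PINT starts also reached it, chr7:130740001-130745000 in WT at 365 kb and chr7:130760001-130765000 in STAG2-KD at 345 kb. In all it held 5 WT and 4 STAG2-KD loops. A loop between the internal and main promoters was in the WT list at 195 kb. The STAG2-KD list had its counterpart 1 bin away, at 190 kb, so that this pair counts as private only under the strict match. Another start bin, chr7:130625001-130630000, held 1 shared loop of 50 kb. Beside the starts, the bin chr7:130760001-130765000 held 9 WT and 11 STAG2-KD loops, 6 of them shared, and counting such neighbours raised LINC-PINT to 38 WT and 36 STAG2-KD loops with 17 shared.

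**Figure D4:**
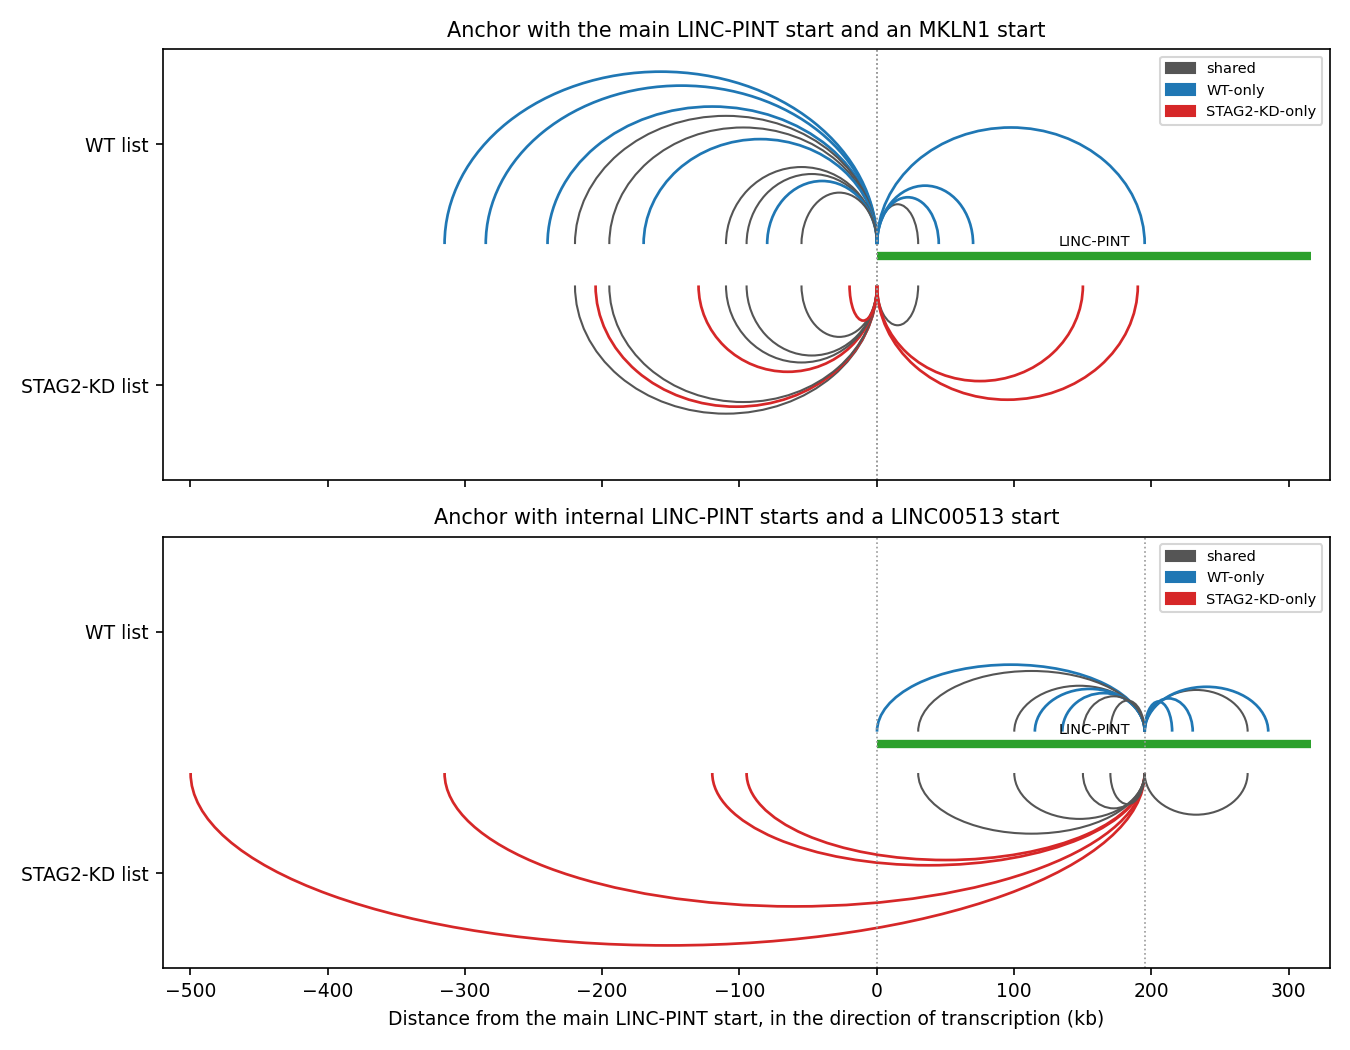
Loops of the main (upper panel) and internal (lower panel) start bins of LINC-PINT by distance from the main start in the direction of transcription (x axis, kb), WT above and STAG2-KD below the green gene; arc height only separates the loops. At the internal bin the WT-only arcs span 20 to 195 kb and the STAG2-KD-only arcs 290 to 695 kb.

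MIR4435-2HG (ENSG00000172965.17, chr2:111763592-112280953, minus strand) had 4 WT loops and 3 STAG2-KD loops, all at the bin of its canonical start, chr2:112250001-112255000, and 2 were shared. It is the host gene of a microRNA and one of a pair of near copies with CYTOR. The shared loops ended in the lncRNA SOCAR at 40 kb and in ANAPC1 at 205 kb, the gene for the largest subunit of the anaphase-promoting complex. WT-only loops ended in ANAPC1 at 125 kb and at BCL2L11 at 370 kb, the gene for the pro-apoptotic protein BIM, and the STAG2-KD-only loop ended in ANAPC1 at 170 kb. The BCL2L11 loop, whose far anchor lay within the annotated span of MIR4435-2HG, was the one coding promoter contact of this gene. The BCL2L11 bin it ended in, chr2:111880001-111885000, held 2 WT loops and 0 STAG2-KD loops, while the bin before it held 0 WT and 3 STAG2-KD loops.

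CYTOR (ENSG00000222041.13, chr2:87754300-87936259, plus strand) had no loop at any of its 8 start bins and none in a neighbouring bin. No loop of either list had both anchors within 500 kb of its canonical start. The nearest anchors lay 1049.3 kb below its lowest annotated start and 406.4 kb above its highest. CYTOR RNA is mainly cytoplasmic, and the gene is almost entirely a copy of sequence in MIR4435-2HG. In hg19, 99.8% of it aligned to MIR4435-2HG in opposite orientation at 90% identity or more, in 3 alignments, the longest of 148154 columns at 99.3% identity. Of the 31-base stretches in the start bins of CYTOR, 6.12 to 28.8% occurred once in hg19. The median over 230 WT anchors was 91.2% and their 5th percentile was 70.8%.

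Both copies had few unique stretches at their canonical starts. The bin of the canonical MIR4435-2HG start was 17.9% unique and held loops in both lists, and the bin of the canonical CYTOR start was 15.1% unique and held none. How reads that match both copies were treated was not given in the sources used here. A lack of contacts at CYTOR and a lack of reads that can be placed there cannot be told apart, nor can contacts of one copy from those of the other. The part of the copy in these counts was not tested.

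MIR22HG (ENSG00000186594.16, chr17:1614741-1620468, minus strand), the host of miR-22, was the member with start loops in the STAG2-KD list alone. It had 0 WT loops and 3 STAG2-KD loops. The bin of its canonical start, chr17:1620001-1625000, holds 1 of its 20 start positions. From this bin loops ran to the promoter of PITPNA, a phosphatidylinositol transfer protein, at 155 kb and into RTN4RL1 at 270 kb. The bin chr17:1615001-1620000 holds the other 19 and the RefSeq start, besides a start of WDR81. From there a loop ran 30 kb to PRPF8, a core splicing factor. The next bin, chr17:1625001-1630000, was a busy anchor in both lists and holds another WDR81 start.

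That next bin held 11 WT loops and 10 STAG2-KD loops, with 3 in both lists, and the 0 WT loops of MIR22HG therefore held for the 5 kb bins of its starts and not for the bin beside them. Of these loops 7 of 11 in WT and 8 of 10 in STAG2-KD ended at a coding promoter. The bin holds a WDR81 start and none of MIR22HG, so its loops cannot be given to MIR22HG alone. Over all loops with a lncRNA start at one anchor the share was 41.5% in WT and 40.0% in STAG2-KD. That is not a like baseline for a bin with a coding start, and no share over such bins is given here. Shared loops reached ABR, a RAC GTPase-activating protein, at 535 kb, the bin of RPA1, a subunit of replication protein A, and SMYD4 at 105 kb, and RTN4RL1 at 290 kb. WT-only loops to coding promoters reached SERPINF1 at 40 kb, SMYD4 at 60 and 75 kb, SMG6 at 365 kb and ABR at 610 kb. The STAG2-KD list held a loop 1 bin away from the SERPINF1 one, at 35 kb, whose far anchor ended 323 bases from a SERPINF1 start, so this pair counts as private only under the strict match. STAG2-KD-only loops reached PRPF8 at 55 kb and 75 kb, where the latter bin also holds RILP, INPP5K at 210 kb, DPH1 at 305 kb, TSR1 at 610 kb and MNT, which encodes an antagonist of MYC, at 675 kb. Counting starts inside or within 5 kb, MIR22HG had 11 WT and 13 STAG2-KD loops, with 3 shared.

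GAS5 (ENSG00000234741.10, chr1:173827697-173838020, minus strand), a host of several snoRNAs that is known for accumulating in growth-arrested cells, had 3 WT loops and 4 STAG2-KD loops, with 2 in common. All lay at the bin chr1:173835001-173840000, which also holds a start of ZBTB37 on the opposite strand. The longer of the shared loops reached a bin without a gene start at 205 kb. The WT-only loop ended in PRDX6-AS1 at 435 kb. STAG2-KD-only loops ended in RC3H1, which encodes the RNA-binding protein roquin, at 140 kb and in a bin at 460 kb. The latter bin held no gene start and lay outside coding genes. Few other loops had both anchors within 500 kb of the canonical start of GAS5, 3 in WT and 1 in STAG2-KD.

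The median distance between anchors was higher for member loops of the STAG2-KD list when all starts were used. It was 95 kb in WT (order-statistic 95% interval 70 to 195) and 162.5 kb in STAG2-KD (95 to 205), beside 90 kb and 85 kb over all loops. Shared member loops had a median of 95 kb, WT-only loops 90 kb with a range of 20 to 435 kb, and STAG2-KD-only loops 207.5 kb with a range of 20 to 695 kb. The intervals of the medians overlapped. With canonical starts only, the WT and STAG2-KD medians were 165 kb and 170 kb. LINC-PINT held 25 of the 41 WT and 21 of the 38 STAG2-KD loops, and without it the medians were 177.5 kb (WT) and 205 kb (STAG2-KD) over the remaining 16 and 17 loops. Per gene the WT and STAG2-KD medians were 160 and 250 kb for SAMMSON, 165 and 170 kb for MIR4435-2HG, 80 and 130 kb for LINC-PINT, and 205 and 172.5 kb for GAS5.

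**Figure D5:**
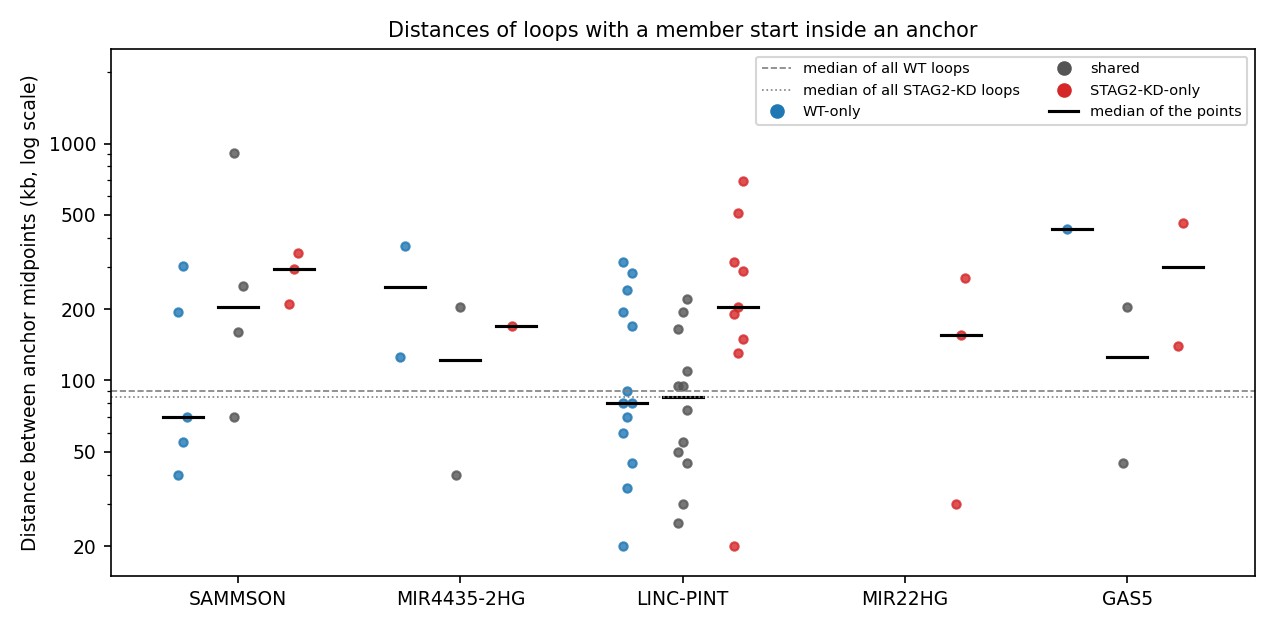
Distance between anchor midpoints (y axis, kb, log scale) of each loop with a member start in an anchor, by member and by list (points), with the median of each set as a black bar and the medians of all loops, 90 kb and 85 kb, as grey lines. STAG2-KD-only points of LINC-PINT span 20 to 695 kb and those of SAMMSON 210 to 345 kb.

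Other lncRNA genes of the same roles were read the same way, from a list of 42 names of which 39 were found in the annotation and 24 had a start loop. In this list 9 genes had more WT loops, 7 had more STAG2-KD loops and 8 had equal numbers, with 78 WT and 76 STAG2-KD loops and 33 shared. Over all 18229 lncRNA genes on the autosomes 18.4% had a start loop. Of those looped genes 44.2% had more WT loops and 36.3% had more STAG2-KD loops. Host genes of small RNAs, the class of MIR22HG and GAS5, were looped in 14 of 20 cases. Of these SNHG16 had 10 WT and 8 STAG2-KD loops with 5 shared, and SNHG12 had 8 in each with 2 shared. Among nuclear and architectural lncRNAs 7 of 9 were looped, including NORAD with 4 in each list and 3 shared, and CRNDE with 3 WT and 6 STAG2-KD loops. Among melanoma lncRNAs 3 of 10 were looped, LINC01291 with 8 in each list, SPRY4-AS1 with 7 in each and SNHG5 with 3 WT loops and 1 STAG2-KD loop. LINC-PINT had more loops than any gene of this list in both lists, and SAMMSON was within their range. TUG1 and TINCR, counted in these groups, carry a protein-coding label in the annotation.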

How the data were processed

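The deposited lists hold 3 columns, a chromosome and the outer positions of a pair of anchors (left start, right end), without read counts or scores. Per the labels and the study's methods, the authors digested chromatin with MboI, used HiC-Pro on hg19 for alignment, hichip-peaks for H3K27ac peaks and FitHiChIP for loops, in versions not given in the sources used here. Whether the lists pool replicates, and which limit on loop significance they passed, was not stated, so a loop missing from one list may lie just below the limit of the caller. Samples were grouped by their titles.

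Anchors were taken as 5 kb bins, and positions are printed counted from 1. Starts came from all transcripts of GENCODE release 44 lifted to GRCh37, on chromosomes 1 to 22, and members were matched by symbol. Distances were taken between anchor midpoints. No test was run, since loops of 1 list are not replicates. Percentages carry exact Clopper-Pearson 95% intervals. The share of unique 31-base stretches and the GATC sites were counted in the GRCh37 sequence, every 100th WT anchor serving as comparison, and CYTOR was aligned to MIR4435-2HG with blastn 2.17.0. RefSeq promoter windows were found for 6 of the 8 members. Selection and matching were tested on simulated loops, and 15 of 15 checks returned the planted value. Python 3.11.15, numpy 2.4.6, scipy 1.17.1 and matplotlib 3.10.9 were used.

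The members, the other lncRNA list and the alternatives were chosen with earlier results of these data known. Named genes are all members and the coding genes with a start at a far anchor, of which some are not reported here. Genes named for a far anchor inside their body, the lncRNAs at far anchors, C11orf68, the bins beside the starts, the cut sites and the comparison of private distances over anchors were chosen after their values were seen. Of the other lncRNA list, the genes given with values were picked as examples after their values were seen, and FTX, SPRY4-IT1 and LINC00673 were not matched by symbol.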

Additional observations from a re-analysis of the deposited data

How the results depend on the processing

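Counting starts inside or within 5 kb of an anchor gave 84 WT and 86 STAG2-KD member loops, with a coding start at 26.2% and 30.2% of far anchors. Keeping the earlier 50% of lines left 26 WT and 20 STAG2-KD loops. Leaving out each member in turn gave 16 to 41 WT and 17 to 38 STAG2-KD loops, lowest without LINC-PINT, which alone moved either count by over 1.5 times. Over the same runs the shared part stayed at 47.4 to 50% of WT and 47.1 to 57.1% of STAG2-KD loops, the median distance at 90 to 177.5 kb and 150 to 205 kb, and coding starts at 7.89 to 12.5% and 5.71 to 17.6%. Canonical starts alone gave medians of 165 kb (WT) and 170 kb (STAG2-KD), and the cause of this move was not tested. Matching within 2 bins raised the shared part to 61.0% of WT and 60.5% of STAG2-KD loops. With a coding start allowed within 5 kb of the far anchor, 14.6% of WT and 15.8% of STAG2-KD loops had one, and with a start of any other gene, 17.1% and 15.8%. Limiting distance to 1 Mb or dropping the line off the 5 kb grid changed no pooled value. Of the pooled values under alternatives, 104 kept within their error or 1.5 times their count and 8 did not. The 104 include values that could not move. NEAT1, MALAT1 and CYTOR had no start loop to leave out, and no member loop was longer than 910 kb. The lists carry no read counts, so depth sets an unknown limit on which loops could be found, and a count of 0 does not show that a contact was absent. Leaving out replicates was not possible with 1 list per group. No paired analysis was possible because no result came from a test and replicates of a group had no lists of their own here.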
